A study of Mus musculus with 6 samples.

Results

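The TOX family comprises 4 nuclear proteins, encoded by Tox, Tox2, Tox3 and Tox4, that share an HMG box, a fold that binds and bends DNA. Its probe sets were taken as all those that the array annotation assigned to 1 of these genes and to no other gene. The 4 genes, of 18193 measured, had 8 of the 45037 probe sets analysed, with 3 for Tox, 2 for Tox2, 1 for Tox3 and 2 for Tox4. The arrays came from DN2 cells, T-cell precursors without CD4 and CD8 that pass through commitment to the T lineage. The cells were sorted from fetal thymus of E2A-deficient mice (3 arrays) and of wild-type mice (3 arrays), all on the FVB background. E2A denotes the E protein transcription factors encoded by Tcf3. The fetal age, the mutant allele and the number of animals behind each array are not given in the labels.

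TOX, the founding member, is needed for the development of CD4 T cells in the thymus and for that of innate lymphoid and natural killer cells. It is also kept on by calcineurin and NFAT signalling in chronically stimulated T cells. TOX2 is known from natural killer cells and follicular helper T cells. TOX3 is known mainly from epithelial and neuronal cells, where it acts with CREB, and TOX4 is a broadly made protein of a protein phosphatase 1 complex.

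The values were intensities, 1 per probe set and array, with array medians between 77.4 and 79.0. Tcf3 served as a check on the labels. Its brightest probe set read 236, 229 and 281 in E2A-deficient cells, against 477, 421 and 414 in wild-type cells. Wild-type replicate 3 differed from the other wild-type arrays in Xist, the RNA of the inactive X chromosome, at 58.7 against 3055 and 4456, and the E2A-deficient arrays read 1901, 1247 and 2154. The Y-linked gene Eif2s3y read 230, 339 and 208 in E2A-deficient cells, against 204, 58.0 and 343 in wild-type cells, so that wild-type replicate 2 stood apart in it. The arrays other than wild-type replicates 2 and 3 carried both signals, so the mix of sexes differed between arrays. Its part in the changes below was not tested. The log2 ratio of the 5' to the 3' beta-actin control probe sets, a sign of RNA integrity and of the reach of the amplification, was -2.60, -2.65 and -2.74 on the E2A-deficient arrays. It was -3.26, -2.63 and -3.35 on the wild-type arrays, so that wild-type replicates 1 and 3 stood below the other 4 arrays.

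Tox and Tox2 were higher in E2A-deficient cells, whereas no probe set of Tox3 or Tox4 passed the test. Of the 8 probe sets, 3 rose, 0 fell and 5 did not pass (limma, Benjamini-Hochberg adjusted p under 0.05 over all 45037 probe sets). Over the whole array 1.79% of probe sets passed, 1.21% of them higher and 0.58% lower as shares of all probe sets. In 4 of the 8, all 3 arrays of E2A-deficient cells lay above all 3 of wild-type cells, which was true of 10.1% of all probe sets. In 0 of the 8 did they lie below, against 6.79% of all. Every change given is the E2A-deficient mean minus the wild-type mean of log2(intensity + 1), and the added 1 makes little difference at these intensities.

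**Figure D1:**
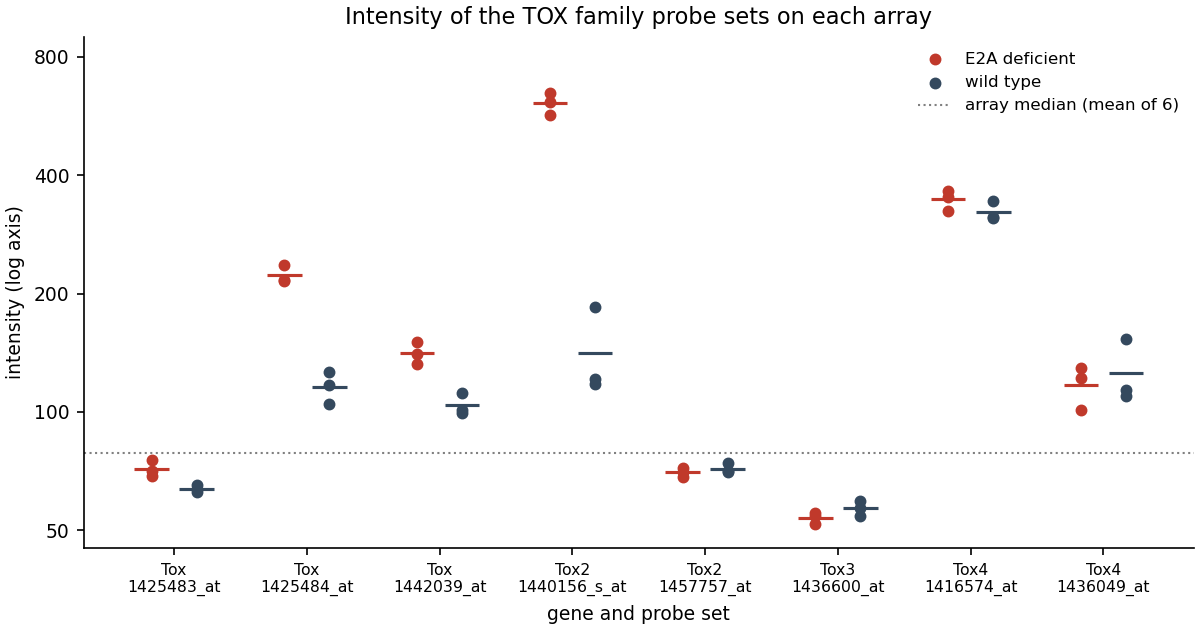
Intensity (log axis) of each of the 8 TOX family probe sets on each array, with E2A-deficient arrays in red on the left and wild-type arrays in dark grey on the right of each pair. Each point is 1 array, short lines are means of 3 arrays, and the dotted line is the mean of the array medians. The Tox2 probe set 1440156_s_at read 569 to 648 in E2A-deficient cells and 118 to 185 in wild-type cells, the widest separation of the 8.

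Tox2 gave the largest change of the family. Its probe set 1440156_s_at read 614, 569 and 648 in E2A-deficient cells, against 185, 121 and 118 in wild-type cells. The E2A-deficient arrays lay close together and far above the wild-type arrays, among which replicate 1 was the highest. The means were 610 ± 39.6 in E2A-deficient cells and 142 ± 37.7 in wild-type cells (SD, n = 3 each), a ratio of 4.31. The log2 change was 2.13 (SE 0.166, 95% interval 1.74 to 2.52, limma adjusted p = 0.00166), and 18 of the 45037 probe sets had a larger rise. On the E2A-deficient arrays the probe set stood at the 94.5th to 95th percentile of all probe sets, and on the wild-type arrays at the 71.8th to 82.5th. Without wild-type replicate 1 the change was 2.34 and the adjusted p was 3.66e-04. Adjusted for the beta-actin ratio it was 2.27 and passed (limma adjusted p = 0.0334).

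The other Tox2 probe set, 1457757_at, did not separate the groups. It read 70.2, 68.4 and 72.1 in E2A-deficient cells, against 70.5, 74.0 and 70.6 in wild-type cells. These values lay below the array medians, and the groups overlapped. The log2 change was -0.028 (95% interval -0.15 to 0.097, limma adjusted p = 0.927). The change of the brighter probe set exceeded it by 2.16 on the log2 scale (SE 0.175, limma adjusted p = 0.00174 over the 16752 pairs of a brightest and another probe set of 1 gene, of which 1.15% differed). No detection calls were used here, so 1457757_at is not shown to measure Tox2 above background, and this difference does not show that 2 signals of Tox2 disagree. The rise of Tox2 rests on 1 probe set, whose suffix marks it as matching more than 1 transcript. With the mean of both probe sets it was 1.05 (limma adjusted p = 9.89e-04), and with only unshared probe sets it was -0.028.

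Tox rose as well. Probe set 1425484_at read 215, 236 and 216 in E2A-deficient cells, against 105, 126 and 117 in wild-type cells. Every E2A-deficient array lay above every wild-type array, with means of 222 ± 11.7 in E2A-deficient cells and 116 ± 10.7 in wild-type cells (SD, n = 3 each). The log2 change was 0.93 (SE 0.0810, 95% interval 0.74 to 1.12, limma adjusted p = 0.00266). Adjusted for the beta-actin ratio it was 0.83 and missed the threshold (limma adjusted p = 0.0523).

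The second Tox probe set, 1442039_at, read 140, 151 and 132 in E2A-deficient cells, against 112, 99.2 and 101 in wild-type cells. The groups did not overlap, and the log2 change was 0.44 (SE 0.0761, limma adjusted p = 0.0401). This call was close to the threshold and was lost when any 1 array other than wild-type replicate 1 was left out. The adjusted p was then 0.115 without wild-type replicate 2 and 0.120 without wild-type replicate 3. It was 0.121, 0.116 and 0.0811 without E2A-deficient replicates 1, 2 and 3 in that order, while the change itself stayed between 0.38 and 0.49 over all alternatives. Adjusted for the beta-actin ratio, it was 0.48 (limma adjusted p = 0.261).

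The dimmest Tox probe set, 1425483_at, read 75.3, 68.5 and 70.8 in E2A-deficient cells, against 65.3, 62.6 and 63.5 in wild-type cells. All 6 values lay below the array medians, the groups did not overlap, and the change of 0.16 (95% interval 0.025 to 0.30) did not pass (limma adjusted p = 0.293). No detection calls were used, so 1425483_at is not shown to measure Tox above background, and whether its change was compressed was not tested. The change of 1425484_at exceeded that of 1425483_at by 0.77 on the log2 scale (SE 0.118, limma adjusted p = 0.0254). That difference did not pass on leaving out any 1 of the 6 arrays (adjusted p from 0.0606 to 0.0950), nor after adjustment for the beta-actin ratio (0.65, adjusted p = 0.355). The change of 1425484_at exceeded that of 1442039_at by 0.50 (SE 0.124), which did not pass (limma adjusted p = 0.141). All 3 Tox probe sets had positive changes. With the mean of the 3 the change was 0.51 (limma adjusted p = 0.00127).

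**Figure D2:**
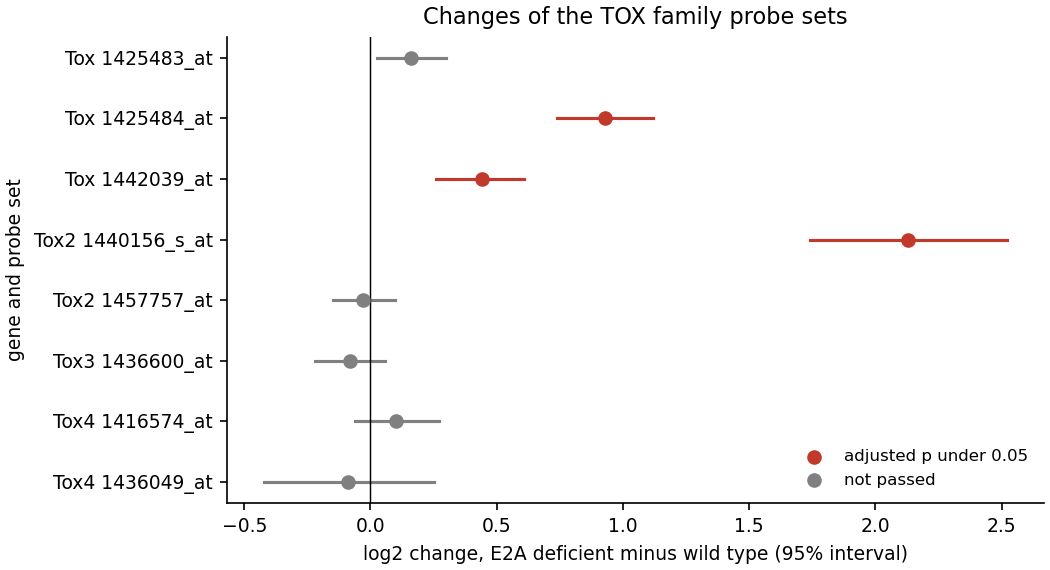
Log2 change, E2A deficient minus wild type, of the 8 TOX family probe sets with 95% intervals from the linear model (3 arrays per group). Red marks probe sets past the threshold. The Tox2 probe sets stand at 2.13 and -0.028, the Tox probe sets at 0.93, 0.44 and 0.16, and the Tox3 and Tox4 intervals include 0.

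Other changed genes of the array were compared in the same way. There were 318 genes whose brightest probe set passed and that had another probe set. In 92 of them (28.9%) another probe set passed in the same direction, as for Tox, and in 0 did one pass in the opposite direction. In 114 (35.8%) the brightest and another probe set differed in their change, as for both Tox and Tox2. Dim probe sets are included in these counts.

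By the brightest probe set of each gene, the rise of Tox2 was larger than that of Tox in these arrays. The log2 value of 1440156_s_at minus that of 1425484_at was 1.27 to 1.58 in E2A-deficient cells and -0.058 to 0.81 in wild-type cells. The ranges did not overlap, and the changes differed by 1.20 on the log2 scale. The exact permutation test, two-sided, gave p = 0.1, the smallest that 3 arrays against 3 allow, so it could not pass the threshold of 0.05. With only unshared probe sets, where the dim 1457757_at stands for Tox2, the changes were -0.028 for Tox2 and 0.93 for Tox. Whether probe sets of different genes respond on the same scale was not tested.

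Tox3 was read by 1 dim probe set, 1436600_at. It gave 54.2, 51.9 and 55.4 in E2A-deficient cells, against 57.0, 54.5 and 59.5 in wild-type cells. The groups overlapped, at the 2.38th to 7.16th percentile of probe sets on the E2A-deficient arrays and the 6.14th to 13.7th on the wild-type arrays. The log2 change was -0.081 (95% interval -0.22 to 0.057, limma adjusted p = 0.708). No detection calls were used, so 1436600_at is not shown to measure Tox3 above background, and a change of so dim a probe set could be compressed. Its interval therefore bounds the change of this signal and not that of the Tox3 transcript.

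Tox4 was read well by 1416574_at, at 353, 324 and 365 in E2A-deficient cells, against 344, 312 and 313 in wild-type cells. The groups overlapped, and the log2 change was 0.10 (SE 0.0705, 95% interval -0.061 to 0.27, limma adjusted p = 0.676). The interval excludes a rise of the size seen for the brightest probe set of Tox. The second probe set, 1436049_at, read 101, 122 and 129 in E2A-deficient cells, against 153, 114 and 110 in wild-type cells. Here wild-type replicate 1 was the highest of the 6 arrays, and the change of -0.087 did not pass (95% interval -0.42 to 0.25, limma adjusted p = 0.909). Its sign was positive without that array, at 0.061, and without E2A-deficient replicate 1, at 0.014. The changes of the Tox4 probe sets differed by 0.19, which did not pass (limma adjusted p = 0.682).

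Because E2A binds E boxes, DNA sites of the form CANNTG, the promoter windows of the members were searched for them. Windows in RefSeq (build GRCm38.p6) run from 250 bases before to 50 after a start site, and 3 of the 4 genes, Tox2, Tox3 and Tox4, matched, with 7 windows. Printed here are a window with an E box for each of 2 start regions of Tox2 and the windows of Tox3 and Tox4. Tox2 rose most of the members by its brightest probe set, and Tox3 and Tox4 did not pass. The 6 bases of each E box are in capitals.
Tox2 first start region, chr2:163203033-163203332, plus strand: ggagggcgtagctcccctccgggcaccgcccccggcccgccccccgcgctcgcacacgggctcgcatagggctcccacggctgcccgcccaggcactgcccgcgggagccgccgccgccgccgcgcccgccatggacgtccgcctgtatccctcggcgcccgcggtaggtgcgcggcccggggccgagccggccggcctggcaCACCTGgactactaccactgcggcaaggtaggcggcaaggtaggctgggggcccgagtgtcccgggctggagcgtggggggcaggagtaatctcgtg
Tox2 second start region, chr2:163225203-163225502, plus strand: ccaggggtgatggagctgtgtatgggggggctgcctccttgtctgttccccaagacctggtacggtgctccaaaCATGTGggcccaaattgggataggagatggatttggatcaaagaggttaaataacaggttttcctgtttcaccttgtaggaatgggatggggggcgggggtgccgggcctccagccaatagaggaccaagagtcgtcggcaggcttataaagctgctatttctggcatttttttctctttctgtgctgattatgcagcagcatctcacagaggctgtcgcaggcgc
Tox3, chr8:90348203-90348502, minus strand: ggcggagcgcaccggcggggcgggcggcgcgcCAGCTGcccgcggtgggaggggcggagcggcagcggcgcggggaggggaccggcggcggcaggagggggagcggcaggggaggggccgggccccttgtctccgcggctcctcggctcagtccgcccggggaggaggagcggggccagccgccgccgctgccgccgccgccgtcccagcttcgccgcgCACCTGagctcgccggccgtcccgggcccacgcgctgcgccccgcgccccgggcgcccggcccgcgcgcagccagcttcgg
Tox4, chr14:52278896-52279195, plus strand: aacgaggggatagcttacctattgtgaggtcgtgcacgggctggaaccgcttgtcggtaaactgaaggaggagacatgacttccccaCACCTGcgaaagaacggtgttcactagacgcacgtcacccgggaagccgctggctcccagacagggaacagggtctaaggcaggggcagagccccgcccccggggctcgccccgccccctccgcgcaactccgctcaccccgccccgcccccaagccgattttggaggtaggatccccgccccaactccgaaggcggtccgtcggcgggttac
CANNTG reads the same on both strands. It was found in 4 of the 5 Tox2 windows, of which a pair shifted by 1 base holds the same CATGTG, and in the Tox3 and Tox4 windows, against 72.3% of all 32851 promoter windows. The form CACCTG, or CAGGTG on the other strand, was in 20.2% of all windows. It stood 47 bases before a Tox2 start site, 31 before that of Tox3 and 163 before that of Tox4. The form CAGCTG, in 16.3% of all windows, was in the Tox3 window, 218 bases before the start site, and in no Tox2 or Tox4 window. CACCTG and CAGCTG are included in the matches to CANNTG. Such a match describes the letters of the window and not binding, and E boxes stood in windows of a member that rose and of members that did not pass.

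Of the 16 genome neighbours of the members, taken as the 2 nearest measured genes on each side, 1 passed. It was Car8, the second measured gene beyond Tox on chromosome 4, which encodes a carbonic anhydrase-related protein without enzyme activity. Car8 read 90.3, 77.3 and 82.2 in E2A-deficient cells, against 51.2, 54.2 and 49.2 in wild-type cells. The wild-type values lay near the bottom of the array scale, and the log2 change was 0.68 (SE 0.0753, limma adjusted p = 0.00406 over 18193 genes). With the mean of its probe sets it was 0.22 (limma adjusted p = 0.0487), and adjusted for the beta-actin ratio it was 0.60 and missed the threshold (0.0756). Between Car8 and Tox, 8430436N08Rik changed by 0.0068, and on the other side of Tox, Nsmaf changed by 0.060. The neighbours of Tox2 had changes between -0.21 and 0.019, none of which passed. In the test per gene, with the brightest probe set standing for each gene, 3.46% of genes passed, 2.4% higher and 1.06% lower.

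**Figure D3:**
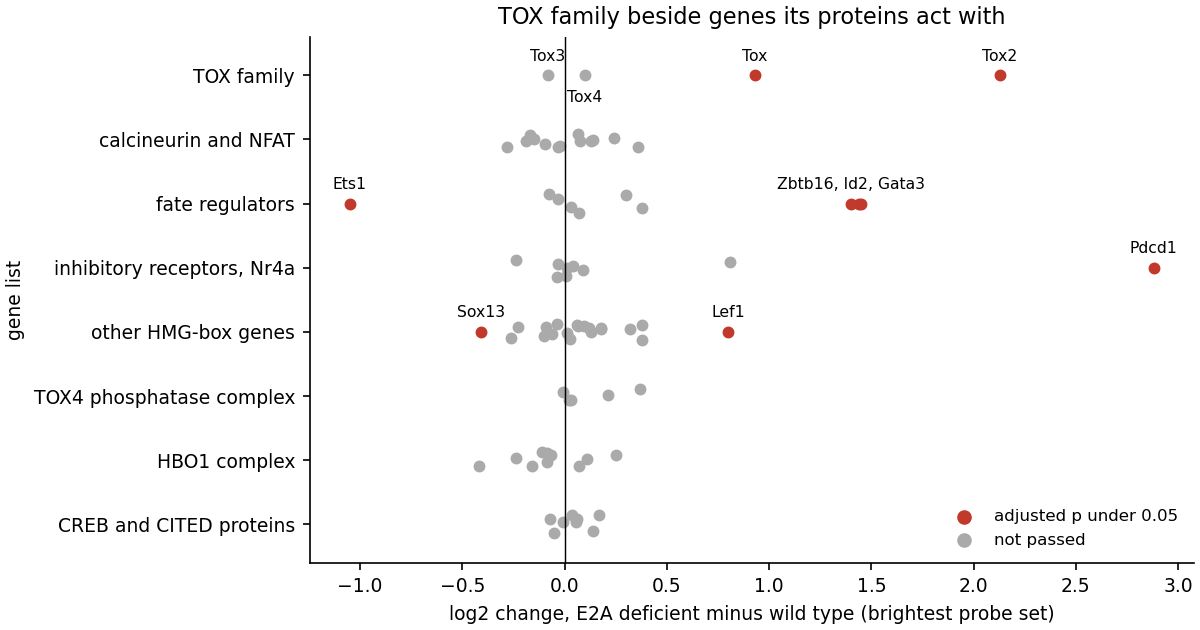
Log2 change, E2A deficient minus wild type, of the brightest probe set of each gene. Shown are the 4 TOX family genes and 7 lists of genes linked to the TOX proteins by function or by an HMG box. Each point is 1 gene, spread vertically where not passed, and red marks genes past the threshold. Gata3, Id2 and Zbtb16 stand between 1.40 and 1.45, Pdcd1 at 2.88, and Tox and Tox2 at 0.93 and 2.13.

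Among transcription factors that work beside TOX in thymocyte, innate lymphoid and natural killer cell development, the array measured 10. Of these 3 rose, 1 fell and the other 6 missed the threshold, where 2.4% of all genes rose and 1.06% fell. Of those that missed it, Tbx21, Eomes and Bcl6 averaged below the array medians in both groups, where a change may not be seen. The median log2 change was 0.19, against 0.015 over all genes. Gata3, which T cells and innate lymphoid cells need, read 731, 594 and 802 in E2A-deficient cells, against 280, 274 and 220 in wild-type cells (log2 change 1.45, SE 0.135, limma adjusted p = 0.00215). Adjusted for the beta-actin ratio, its change of 1.37 missed the threshold (limma adjusted p = 0.0521). Id2, the E protein antagonist on which innate lymphoid cells depend, changed by 1.44 and Zbtb16, the factor of innate-like lymphocytes, by 1.40 (limma adjusted p = 9.71e-04 and 0.00213). The change of Id2 was 0.55 with the mean of its 3 probe sets (limma adjusted p = 0.00306), of which the 2 dimmer ones changed by 0.15 and 0.062 and did not pass. Ets1, a factor of T and natural killer cells, fell to 286, 302 and 255 in E2A-deficient cells, against 582, 665 and 510 in wild-type cells (-1.05, limma adjusted p = 0.00307). In all 4 genes the groups did not overlap, which can follow from their choice by the test on the same arrays. Over all probe sets, the E2A-deficient arrays lay wholly above in 10.1% and wholly below in 6.79%.

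Inhibitory receptors and Nr4a factors, which accompany TOX in chronically stimulated T cells, gave 9 measured genes. Of these 1 rose, 0 fell and the other 8 missed the threshold (median log2 change 0.013), where 2.4% of all genes rose and 1.06% fell. The gene that rose was Pdcd1, the receptor PD-1. It read 595, 470 and 795 in E2A-deficient cells, against 70.3, 81.0 and 94.1 in wild-type cells (2.88, SE 0.191, limma adjusted p = 6.72e-04). The other measured receptors and Nr4a factors did not move with it past the threshold. Of these, Havcr2, Lag3, Ctla4 and Entpd1 averaged below the array medians in both groups, where a change may not be seen. The closest to the threshold was Cd160, at 0.81 (SE 0.211, limma adjusted p = 0.1). Havcr2 changed by -0.24 (limma adjusted p = 0.129). The E2A-deficient arrays lay wholly above for Cd160 and wholly below for Havcr2, as in 10.1% and 6.79% of all probe sets in that order. These genes are named here after their values were seen.

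The calcineurin and NFAT pathway, which switches Tox on in stimulated T cells, had 13 measured genes, and none passed by limma (median log2 change -0.024). At an unadjusted p under 0.05 the count was 5, where 2857 of all 18193 genes had such a p by limma. The smallest p-values belonged to the calcineurin subunits Ppp3ca, which changed by 0.36 on the log2 scale (SE 0.0796, limma adjusted p = 0.0638), and Ppp3r1, at 0.24 (SE 0.0706, limma adjusted p = 0.136). The other 3 had negative changes, of -0.28 for Rcan1, -0.19 for Nfatc2 and -0.17 for Nfat5, named here after their values were seen.

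Of 20 measured genes of other proteins with an HMG box, 1 rose, 1 fell and 18 did not pass (median log2 change 0.063). Over all genes, 2.4% rose and 1.06% fell. Lef1, a partner of beta-catenin in thymocytes, averaged 161 ± 10.3 in E2A-deficient cells and 91.7 ± 2.54 in wild-type cells (SD, n = 3 each), which is 0.80 on the log2 scale (SE 0.0660, limma adjusted p = 0.00124). Sox13, a factor of gamma-delta T cells, averaged 148 ± 11.9 in E2A-deficient cells and 196 ± 12.0 in wild-type cells (-0.41, SE 0.0805, limma adjusted p = 0.0409). Sox13 missed the threshold when any 1 array was left out, with changes from -0.46 to -0.34 and adjusted p-values from 0.0601 to 0.114.

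Complexes in which TOX proteins act gave no calls by limma. Among their genes, Ppp1r10 and Cited1 averaged below the array medians in both groups, where a change may not be seen. For the unadjusted counts below, 2857 of all 18193 genes had an unadjusted p under 0.05. The protein phosphatase 1 complex of TOX4 had 5 measured genes (median log2 change 0.033), of which 2 had an unadjusted p under 0.05. They were the catalytic subunits Ppp1ca (0.37, limma adjusted p = 0.0953) and Ppp1cc (0.21, 0.0964). In both, every E2A-deficient array lay above every wild-type array, as in 10.1% of all probe sets, and both were picked for their small p. The HBO1 histone acetyltransferase complex, to which TOX binds in T cells, had 10 measured genes (median -0.086), of which 2 had an unadjusted p under 0.05. They were the subunits Jade2 (-0.42, limma adjusted p = 0.0614) and Brpf1 (0.25, 0.176). The CREB, CBP and CITED proteins linked to TOX3 had 8 measured genes (median 0.045), of which 0 had an unadjusted p under 0.05. Creb1 (0.14) and Cited2 (0.17) had the smallest p-values there.

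The genes whose profile over the 6 arrays was most like that of Tox or Tox2 were found from log2(intensity + 1) with each gene's own mean removed, by the root mean square difference. For Tox the 5 nearest were Oaf (0.0722), Mindy4, a deubiquitinase (0.0722), Rnf128, a ubiquitin ligase of anergic T cells (0.0792), Plp2 (0.0873) and Stim2, a calcium sensor of the endoplasmic reticulum (0.0891), as root mean square differences in log2 units. Stim2 read 343, 444 and 352 in E2A-deficient cells, against 165, 221 and 194 in wild-type cells. In both groups replicate 2 was its highest array, as for Tox. Among the E2A-deficient arrays Plp2 was highest in replicate 3, and among the wild-type arrays Rnf128 was highest in replicate 3. The change of Stim2 was 0.52 with the mean of probe sets. For Tox2 the 5 nearest were Rora, a factor of type 2 innate lymphoid cells (0.168), the signalling adaptor Sh2d1a (0.191), the transcription factor Maf (0.193), S100a4 (0.200) and Niban1 (0.224). Rora read 324, 283 and 372 in E2A-deficient cells, against 77.1, 71.4 and 67.0 in wild-type cells. Sh2d1a read 341, 364 and 390 in E2A-deficient cells, against 79.8, 61.8 and 56.3 in wild-type cells. Both were highest in replicate 3 among the E2A-deficient arrays and in replicate 1 among the wild-type arrays, as was Tox2. Among the E2A-deficient arrays S100a4 was highest in replicate 1 and Niban1 in replicate 2. All these genes were picked for likeness over the same arrays, so a shared order of replicates follows from the choice. These distances were smaller for Tox than for Tox2, whose own change was larger, and they describe 6 arrays that fall into 2 groups.

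**Figure D4:**
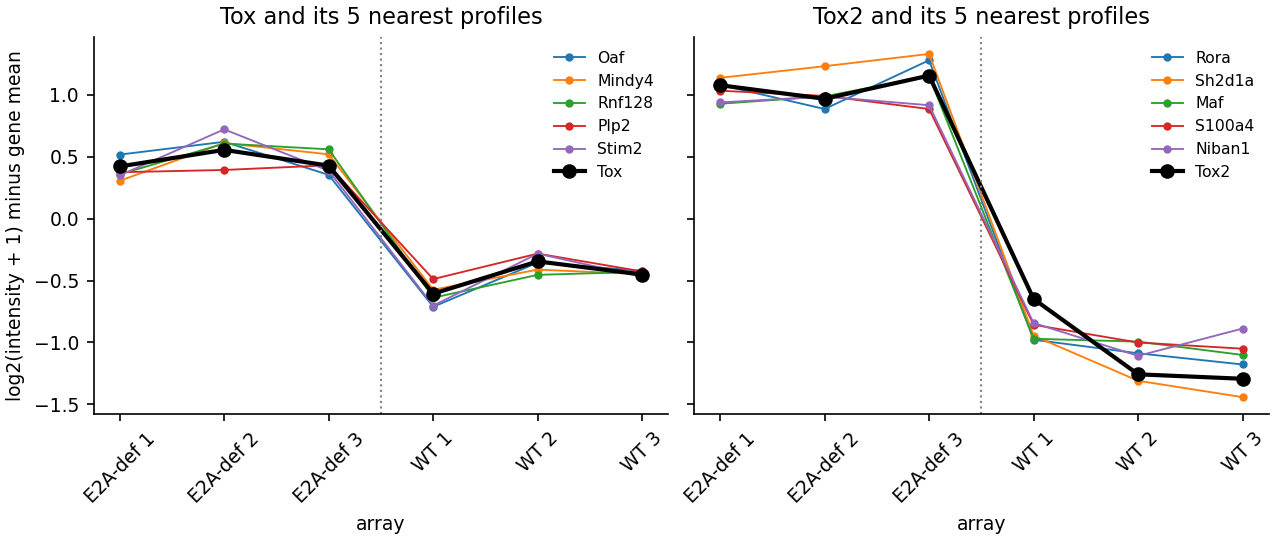
Centred log2(intensity + 1) of Tox (1425484_at, left) and Tox2 (1440156_s_at, right) in black and of the 5 genes with the smallest root mean square difference from each, over the 3 E2A-deficient and then the 3 wild-type arrays. Lines join the arrays for legibility only. Every gene drawn is higher on the 3 E2A-deficient arrays than on the 3 wild-type arrays.

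Markers of other cells that make TOX proteins moved in part with Tox and Tox2. Beside the counts of markers below, 2.4% of all genes rose and 1.06% fell. Of 7 measured markers of innate lymphoid and natural killer cells, 3 rose and 0 fell, namely Icos (3.10), Rora (2.16) and Zbtb16 (1.40) as log2 changes. The summed intensity of the 7 was 1995 to 2318 in E2A-deficient cells and 679 to 800 in wild-type cells, while the natural killer receptors stayed below the array medians. Ncr1 averaged 71.4 in E2A-deficient cells and 68.1 in wild-type cells, and Klrd1 73.5 in E2A-deficient cells and 70.6 in wild-type cells. Of 4 measured gamma-delta T-cell markers Cd163l1 (2.01) and Maf (2.04) rose and Sox13 (-0.41) fell, with a summed intensity of 1095 to 1510 in E2A-deficient cells and 514 to 577 in wild-type cells. Of 7 markers of double-positive and mature T cells Klf2 (0.79) rose, and Cd5 (-0.70) and Arpp21 (-1.10) fell. Cd4 averaged 82.3 in E2A-deficient cells and 85.3 in wild-type cells, and the summed intensity of the 7 was 637 to 662 in E2A-deficient cells and 723 to 735 in wild-type cells. The part of these cells in the changes of Tox and Tox2 was not tested, and in sorted bulk RNA more cells of a type and more RNA per cell cannot be told apart. The DN2 markers Il2ra (0.13), Kit (0.26) and Cd44 (0.044) had log2 changes that did not pass, and Thy1 fell by 1.32 (limma adjusted p = 0.00158). No marker of the B-lineage, dendritic, erythroid or thymic epithelial lists passed by limma. Of their 19 measured genes 3 had an unadjusted p under 0.05, against 2857 of all 18193 genes. Of 6 myeloid markers Fcgr3 (1.22) rose and Lyz2 (-0.50) fell. With the mean of probe sets the changes of Icos (1.72), Rora (1.04), Maf (0.79) and Arpp21 (-0.40) were smaller and passed, and with only unshared probe sets that of Cd163l1 was 0.85. The calls of Cd5 and Lyz2 were lost without wild-type replicate 3 or without E2A-deficient replicate 1 or 2, that of Cd5 also without E2A-deficient replicate 3, and those of Cd5, Lyz2 and Cd163l1 with the beta-actin ratio.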

How the data were processed

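The deposited values are linear intensities, 1 per Affymetrix probe set and array. Per the submitters' processing notes, RMA was used. Its version, the return to a linear scale, any further scaling or filter and the genome build are not given in the sources used here. Per the labels, sorting was directly into lysis buffer, RNA came from micro columns, and cRNA was made with a repeated amplification, which favours 3' ends. Intensities near the bottom of the scale can compress changes of dim probe sets, which was not tested here.

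Of 45101 probe sets the 64 controls were removed, and log2(intensity + 1) was fitted per probe set with limma 3.58.1 in R 4.3.3 (empirical Bayes, two-sided, Benjamini-Hochberg over 45037 probe sets, threshold 0.05). GEO's platform annotation named 1 gene for 34945 probe sets, several for 932 and none for 9160, and only the first kind was named. Entrez identifiers of 34741 of them were found in a RefSeq gene table (GRCm38.p6), which was used for names, for which genes neighbour each other and for promoter windows, and 0 symbols changed. For genes, the brightest probe set (by its mean over all 6 arrays) was fitted, over 18193 genes. Differences between probe sets of a gene were fitted as the log2 value of the brightest minus that of each other, over 16752 pairs of 9010 genes. The fit was tested on simulated data for this comparison over 45037 probe sets with 200 changed. A log2 change of 0.5 was recovered in 72% of cases, 1 in 98.9% and 2 in 100%, and 5.83% of the calls were false. The simulated noise was normal and independent, with the moderated variances of the fit. It held no compression of dim probe sets and no differences in sex or RNA quality between arrays. These shares may therefore not hold for the real arrays.

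Replicates are separate samples per the labels, which do not say that they are separate animals, so p-values measure the spread between these samples, which may be technical. With 3 arrays per group, their number limits the precision. The members and gene lists were chosen with earlier results of these data known, so list counts are descriptions. Genes were named if they were family members, Tcf3, list members past the threshold (or the 2 with the smallest p where none passed), neighbours past the threshold, or among the 5 nearest profiles of Tox or Tox2. This rule covers the 7 lists of genes linked to the TOX proteins by function or by an HMG box. Marker genes of cell types and other genes outside it were named after their values were seen. Alternatives were nothing added before log2, a replicate block, each array left out, quantile normalization, median centring, only probe sets above the median, array weights, robust variances with an intensity trend, adjustment for the beta-actin ratio and, for genes, the mean of probe sets or unshared probe sets only. Samples deviated from their group means with correlations of 0.0413, 0.0414 and -0.036 between arrays of the same replicate number, so the numbers were not taken as pairs. Figures were drawn with matplotlib 3.10.9 in Python 3.11.15.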

Additional observations from a re-analysis of the deposited data

How the results depend on the processing

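The rise of Tox2 by 1440156_s_at passed under all 14 alternatives run (log2 change 2.02 to 2.34), and its difference from 1457757_at passed under all 13. The rise of Tox by 1425484_at kept its direction under all 14 (0.83 to 1.00) and missed the threshold when adjusted for the beta-actin ratio (0.83). The smaller rise by 1442039_at missed it with the replicate block (0.44, limma adjusted p = 0.0931), with robust variances and an intensity trend (0.44, 0.0516), with the beta-actin ratio (0.48) and without 5 of the 6 arrays (0.38 to 0.49 over the arrays left out). The difference of 1425484_at from 1425483_at missed it with the beta-actin ratio (0.65) and without any 1 array (0.69 to 0.85). The sign of Tox4 by 1436049_at, which never passed, turned without wild-type replicate 1 (0.061) or E2A-deficient replicate 1 (0.014; -0.18 to 0.061 over the arrays left out) and with the beta-actin ratio (0.022). The other probe sets of the family kept their side of the threshold and their direction under the alternatives run. The 3 probe sets below the median could not be fitted with only brighter probe sets. With the beta-actin ratio 1 of the 8 probe sets passed, which was that of Tox2, and the cause was not tested.

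Over all probe sets 804 passed, against 358 to 563 with 1 array left out, 471 with the replicate block and 114 with the beta-actin ratio. Over genes 630 passed, against 320 to 533 with 1 array left out and 123 with the beta-actin ratio. Of pairs of probe sets 192 differed, against 59 to 101 with 1 array left out, 59 with the replicate block, 66 with only probe sets above the median and 25 with the beta-actin ratio. The cause of these drops was not tested. Replicate numbers were not taken as pairs. E2A-deficient replicates 1 and 2 correlated best with their own number and replicate 3 did not. All these correlations were weak, and they do not exclude that arrays were paired. The replicate block ended no other call of the family. As genes, Tox changed by 0.51 and Tox2 by 1.05 with the mean of probe sets, and Tox2, whose brighter probe set is shared between transcripts, by -0.028 with only unshared ones. For the 27 other genes named with a call, 406 of 431 checks kept it, 25 lost it and 0 reversed. Of the 25, 9 were for Sox13, 5 for Cd5 and 4 for Lyz2, and the others were 1 each, with the beta-actin ratio, for Gata3, Cd163l1, Tcf3, Car8, Oaf, Mindy4 and Stim2. With the mean of probe sets the changes of Tcf3 (-0.52), Id2 (0.55), Maf (0.79), Rora (1.04), Icos (1.72), Stim2 (0.52), Car8 (0.22) and Arpp21 (-0.40) shrank over 1.5 times and passed, and that of Cd163l1 was 0.85 with only unshared probe sets. After quantile normalization, calls over all probe sets split into 453 higher and 315 lower, against 543 higher and 261 lower without it.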
